A study of Mus musculus with 12 samples.

Results

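RNAs that carry no annotated protein were followed through the sucrose gradients of mouse oocytes, 8 in number: the snoRNA host genes *Gas5*, *Snhg1*, *Snhg3*, *Snhg5*, *Snhg8* and *Snhg12*, and the nuclear long noncoding RNAs *Malat1* and *Neat1*. They were chosen by symbol, with earlier results of these data known, and all 8 were found among the 24259 gene symbols of the expression table. The libraries came from germinal vesicle (GV) oocytes, which rest in meiotic prophase, of 3-week-old mice given 5 IU of PMSG 46 h earlier. The 4 groups were WT RNP, WT polysome, KO RNP and KO polysome, with 3 libraries each and 12 in all. WT mice were wild type, and KO mice were homozygous for *Lsm14b* tm1a(KOMP)Mbp, an insertion allele present in every cell of the animal, on the C57BL/6J background shared by both genotypes. The RNP pool holds fractions 1 to 10 of the gradient and the polysome pool fractions 11 to 28, with about 1500 oocytes lysed per genotype. RNA was amplified by Smart-seq2, which primes on poly(A) tails, so an RNA without a tail is hardly seen. The labels do not say whether the 3 libraries of a group came from separate lysates, so p-values measure only the spread between these libraries, which may be technical.

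SnoRNA host genes carry small nucleolar RNAs in their introns, and these guide the modification of ribosomal RNA once splicing has freed them. The spliced exons that are left hold no long reading frame, but they leave the nucleus, can bind ribosomes and are known targets of nonsense-mediated decay, which destroys RNAs whose translation stops early. Many host genes begin with a run of pyrimidines at the start site, the terminal oligopyrimidine (TOP) tract known from ribosomal protein mRNAs, which ties translation to growth signals. *Malat1* lies in nuclear speckles and *Neat1* builds paraspeckles, and both are known as RNAs that stay in the nucleus. RNAs of this kind serve as a reference in polysome studies, because sedimentation with the heavy fractions does not by itself show that an RNA is translated.

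The starts of the RefSeq transcripts are shown because the TOP tract is read from these bases. The lines give 45 bases of GRCm38.p6 on the sense strand, 15 before and 30 from the start site on, with capitals on a run of at least 5 bases that opens with C within 5 bases of the start site and holds only C or T.
Gas5, chr1:161035151-161035195, plus strand: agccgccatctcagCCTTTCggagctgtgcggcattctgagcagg
Snhg3, chr4:132353657-132353701, minus strand: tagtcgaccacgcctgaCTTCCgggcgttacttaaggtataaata
Snhg8, chr3:123508307-123508351, minus strand: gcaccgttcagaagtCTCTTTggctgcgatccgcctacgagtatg
Snhg12, chr4:132308663-132308707, plus strand: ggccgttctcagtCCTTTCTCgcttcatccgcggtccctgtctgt
Snhg5, chr9:88522868-88522912, minus strand: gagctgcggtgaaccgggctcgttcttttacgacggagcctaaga
Snhg1, chr19:8723472-8723516, plus strand: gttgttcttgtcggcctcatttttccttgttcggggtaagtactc
Malat1, chr19:5802643-5802687, minus strand: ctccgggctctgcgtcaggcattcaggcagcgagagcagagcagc
Such a run was found in 4 of the 7 RNAs with an entry, at 1 of the 2 listed start sites of *Gas5* and at those of *Snhg3*, *Snhg8* and *Snhg12*, and in 18.3% of all 32851 listed start sites. *Snhg5*, *Snhg1* and *Malat1* have none within this distance, and *Neat1* has no entry. A match is a description of the letters only.

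The levels separated the RNAs into those read in most libraries and those near or at 0. The table gives FPKM, fragments per kilobase of transcript scaled for the size of the library, so levels can be compared between genes per unit length, and a level in a pool is relative to the other RNA of that pool. *Malat1*, *Snhg3* and *Snhg5* reached 1 FPKM in at least 3 libraries and were the 3 members tested in every comparison, whereas the other 5 did not. For scale, 10949 genes, 45.1% of the table, reached 1 FPKM in at least 3 of the 12 libraries. Of the 96 values of the 8 RNAs, 56 are listed at 0, and the one member above 0 in all 12 libraries was *Malat1*. By mean over the 12 libraries *Snhg5* stood highest at 8.24 FPKM, with 22.7% of all genes above it, followed by *Snhg3* at 7.33 FPKM and *Malat1* at 2.13 FPKM.

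The libraries themselves are described by a few checks. *Lsm14b*, the gene targeted in the KO mice, was at 27.4 to 34.6 FPKM in WT RNP and 11.3 to 15.3 FPKM in WT polysome libraries, against at most 0.893 FPKM in the 6 KO libraries. Of the 14 oocyte markers, 13 were at or above 1 FPKM in every library, and the summed level of the 15 granulosa and cumulus cell markers ranged from 28.0 to 80.4 FPKM in WT polysome and from 86.1 to 110.1 FPKM in KO polysome libraries, with *Vim* and *Gatm* at 0 in all 12. In RNP libraries that sum ranged from 31.3 to 37.3 FPKM in WT and from 42.7 to 65.8 FPKM in KO, and in bulk samples fewer cells of a type and less RNA per cell cannot be told apart. The sum rested on few genes, with *Cyp19a1* alone at 14.6 to 62.0 FPKM and the only marker at or above 1 FPKM in all 12. Of the 15, 8 were at 0 throughout WT RNP, 5 in WT polysome, 4 in KO RNP and 5 in KO polysome. The sum of the 7 theca and stroma markers reached at most 2.58 FPKM in any library, and that of the 6 leukocyte markers in the table at most 10.7 FPKM, with *Ptprc* and *Cd52* at 0 throughout. *Mir300*, listed at 0 in every other library, took 24.5% of the summed FPKM of KO polysome replicate 2. As FPKM is divided by transcript length, that is not a share of its fragments. The libraries held an estimated 4900000 to 7970000 fragments. Genes that nearly all cells use, such as *Gapdh* and *Ppia*, stayed below 1 FPKM in every library and at 0 in some, so a 0 in this table says only that the gene is listed at 0.

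*Snhg5*, which hosts *Snord50a* and *Snord50b*, was higher in the polysome pool of WT oocytes. It was the only tested member with an adjusted p under 0.05 by limma in any comparison. The gene lies at chr9:88521051-88522897 of mm10 on the minus strand, overlaps no other annotated gene, and its RefSeq transcript has 5 exons and 1004 bases. The WT RNP libraries held 3.26, 0.191 and 0 FPKM, while the WT polysome libraries held 22.2, 22.5 and 6.25 FPKM. The pools did not overlap, and 2 of the polysome libraries stood well above the third. In fragments, the estimate is about 19.4, 1.03 and 0 in WT RNP against 110.0, 117.1 and 40.1 in WT polysome.

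**Figure D1:**
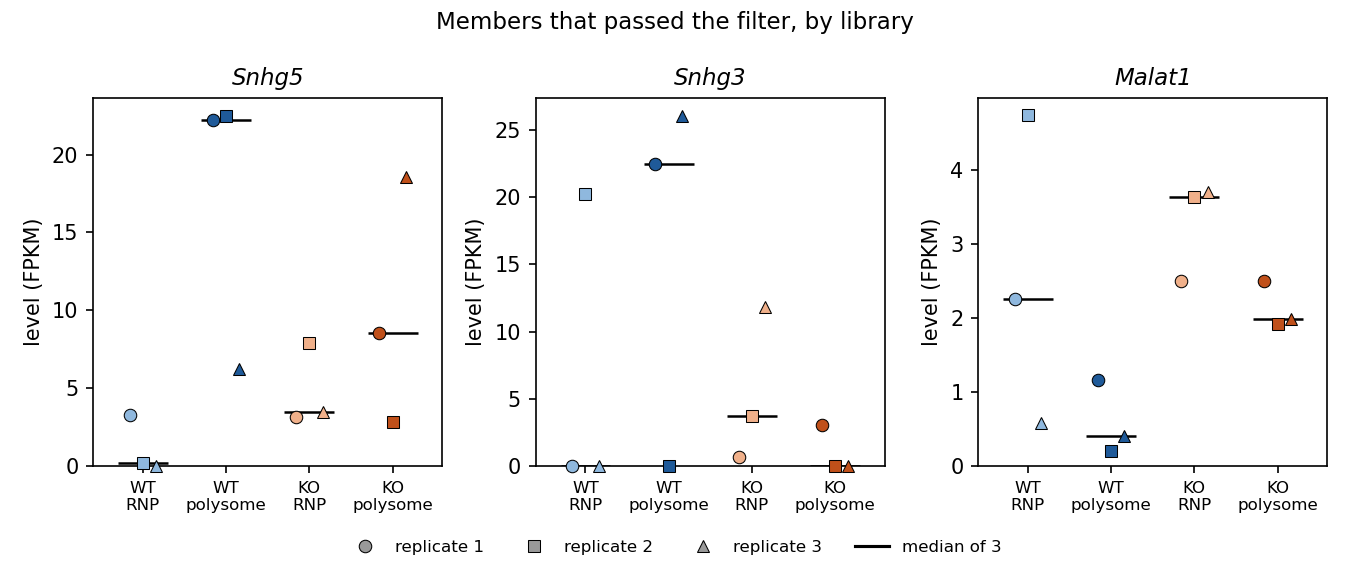
Levels in FPKM (vertical axes, each from 0) of *Snhg5*, *Snhg3* and *Malat1* in the 12 libraries by genotype and pool, with 1 symbol per library and a line at the median of each 3. *Snhg5* lies between 6.25 and 22.5 FPKM in WT polysome libraries and at most at 3.26 FPKM in WT RNP libraries, *Snhg3* falls to 0 in 5 libraries, and *Malat1* is lowest in the WT polysome pool.

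On the log2(FPKM + 1) scale the difference was 3.20 (SE 0.71, 95% interval 1.59 to 4.81, n = 3 against 3), with an adjusted p of 0.0189 by limma with Benjamini-Hochberg adjustment over all genes tested. At this pseudocount 20 of the 9574 genes tested differed more in either direction, and the size of the difference depends on the pseudocount, at 5.00 with 0.1 and 1.76 with 5, since 2 of the WT RNP values are near or at 0. Of all genes tested, 14.7% were called in this comparison and 34.6% had groups that did not overlap, beside 1 of the 3 tested members by either rule. *Snhg5* reached 1 FPKM in 3 WT polysome libraries and in 1 WT RNP library. It thus passed the filter through the pool where it was higher. The call of *Snhg5* did not survive every alternative. The adjusted p was 0.0708 when no filter was placed on low values, 0.0617 without WT RNP replicate 2, 0.0618 without WT RNP replicate 3 and 0.0508 without WT polysome replicate 1, with differences of 2.81 to 3.20 in these cases.

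In the KO the pools of *Snhg5* were closer together. KO RNP libraries held 3.17, 7.88 and 3.51 FPKM and KO polysome libraries 8.54, 2.83 and 18.6 FPKM. These ranges overlapped, and KO polysome replicate 2 lay below all 3 RNP libraries. The difference of 0.70 (SE 0.57, 95% interval -0.58 to 1.98) did not pass the test (adjusted p = 0.399 by limma), where 29.2% of all genes were called and 44.2% had groups that did not overlap, beside none of the 3 members by either rule or at an unadjusted p under 0.05.

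Whether the genotypes differed was asked within each pool and then of the pool difference itself. In the RNP pool *Snhg5* was higher in KO by 1.68 (SE 0.59, 95% interval 0.34 to 3.02), with an unadjusted p of 0.0194 and an adjusted p of 0.0762 by limma, and the groups overlapped in part, since WT RNP replicate 1 at 3.26 FPKM lay above the lowest KO library. Without WT RNP replicate 1 the difference was 2.34 with an adjusted p of 0.0144 by limma. With any other single library left out it was 1.29 to 1.88, with adjusted p from 0.121 to 0.243 by limma. *Snhg5* reached 1 FPKM in 3 KO RNP libraries and in 1 WT RNP library, so it passed the filter through the KO. The summed granulosa and cumulus cell markers given above were higher in the KO RNP than in the WT RNP libraries too, and their part in this value was not tested. In the polysome pool the KO minus WT difference was -0.82 (SE 0.67, 95% interval -2.35 to 0.70, adjusted p = 0.484 by limma). The polysome minus RNP difference was smaller in KO than in WT, with an interaction of -2.50 (SE 0.99, 95% interval -4.63 to -0.37), with an unadjusted p of 0.0248 and an adjusted p of 0.355 by limma. A different response of *Snhg5* in the 2 genotypes was therefore not established over all genes, where 0.237% of 10949 were called.

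The longest reading frame of the *Snhg5* transcript is shown because this RNA was the one called toward the polysome pool. It runs over 66 codons from base 694 to base 894 of the transcript, in exon 5 (chr9:88521162-88521362, GRCm38, minus strand), with the start and stop codons in capitals.
Snhg5 reading frame: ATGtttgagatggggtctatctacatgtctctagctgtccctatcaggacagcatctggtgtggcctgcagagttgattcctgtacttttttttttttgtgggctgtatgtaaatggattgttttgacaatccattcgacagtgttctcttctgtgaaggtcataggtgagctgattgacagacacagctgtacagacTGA
The first ATG of the transcript lies at base 60, and 16 ATGs precede the frame shown. The longest frame of each RefSeq transcript spans 58 codons in *Gas5*, 41 in *Snhg1*, 43 in *Snhg3*, 35 in *Snhg8*, 54 in *Snhg12*, 64 in *Malat1* and 126 in *Neat1*, the longest transcript at 20771 bases. The *Gas5* and *Snhg8* transcripts used are annotated as retaining an intron, and their frames and fragment estimates rest on those forms. No measurement of translation was made on these frames here.

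*Snhg3*, the host of *Snora73a* and *Snora73b*, swung between 0 and over 20 FPKM among libraries of the same group, and no difference passed the test. WT RNP libraries held 0, 20.3 and 0 FPKM, WT polysome libraries 22.4, 0 and 26.1 FPKM, KO RNP libraries 0.655, 3.72 and 11.8 FPKM, and KO polysome libraries 3.05, 0 and 0 FPKM. The ranges overlapped in every comparison, and 3 of the 4 groups held at least 1 library at 0. The gene lies at chr4:132351931-132353686 of mm10 inside the transcribed region of *Rcc1*, on the same strand. *Rcc1* encodes the chromatin-bound exchange factor of Ran and stood at 20.9 to 50.7 FPKM, and 28 of the 437 bases of the *Snhg3* transcript fall in *Rcc1* exons, so reads could be split between the 2 genes and the level of *Snhg3* is uncertain. One fragment on so short a transcript is worth about 0.530 to 0.861 FPKM, and the highest library, WT polysome replicate 3, corresponds to about 49.2 fragments.

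The polysome minus RNP difference of *Snhg3* was 1.63 in WT (SE 1.50, 95% interval -1.78 to 5.05, adjusted p = 0.521 by limma) and -1.54 in KO (SE 0.79, 95% interval -3.33 to 0.24, adjusted p = 0.180 by limma). The KO minus WT difference was -2.43 in the polysome pool (SE 1.22, 95% interval -5.20 to 0.34, adjusted p = 0.245 by limma) and 0.74 in the RNP pool (SE 1.17, 95% interval -1.89 to 3.38, adjusted p = 0.700 by limma). The interaction of -3.18 (95% interval -7.33 to 0.98, adjusted p = 0.586 by limma) is the widest of all. These intervals span several log2 units, so large differences were not excluded here. One library decided the polysome comparison of the genotypes: without WT polysome replicate 2, which is listed at 0, the difference was -3.98 with an adjusted p of 0.0173 by limma.

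The other 4 snoRNA host genes were hardly read. *Snhg1*, which carries 8 snoRNA genes, is listed at 0 in all 12 libraries. *Gas5*, whose name stands for growth arrest specific and which carries 10 annotated snoRNA genes, was above 0 in WT polysome replicate 2 at 0.0662 FPKM and in KO RNP replicate 3 at 0.0644 FPKM, each about 1 fragment. *Snhg8*, the host of *Snora24*, was listed at 0 in the 6 WT libraries and at 0.475, 0 and 0.279 FPKM in KO RNP and 0, 0.754 and 0 FPKM in KO polysome libraries, at most about 2.25 fragments. *Snhg12*, with 5 snoRNA genes, was above 0 in WT RNP replicate 3 at 1.28 FPKM and KO RNP replicate 2 at 0.396 FPKM. With *Neat1* included, the 5 RNAs under the filter were above 0 in 10 of 60 values, 6 in RNP and 4 in polysome libraries, and no fold is given between groups at 0. Of the snoRNAs inside these genes, *Snord47*, *Snord22*, *Snora24*, *Snora16a*, *Snora44*, *Snora61* and *Snord99* have rows of their own and are listed at 0 in all 12 libraries.

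**Figure D2:**
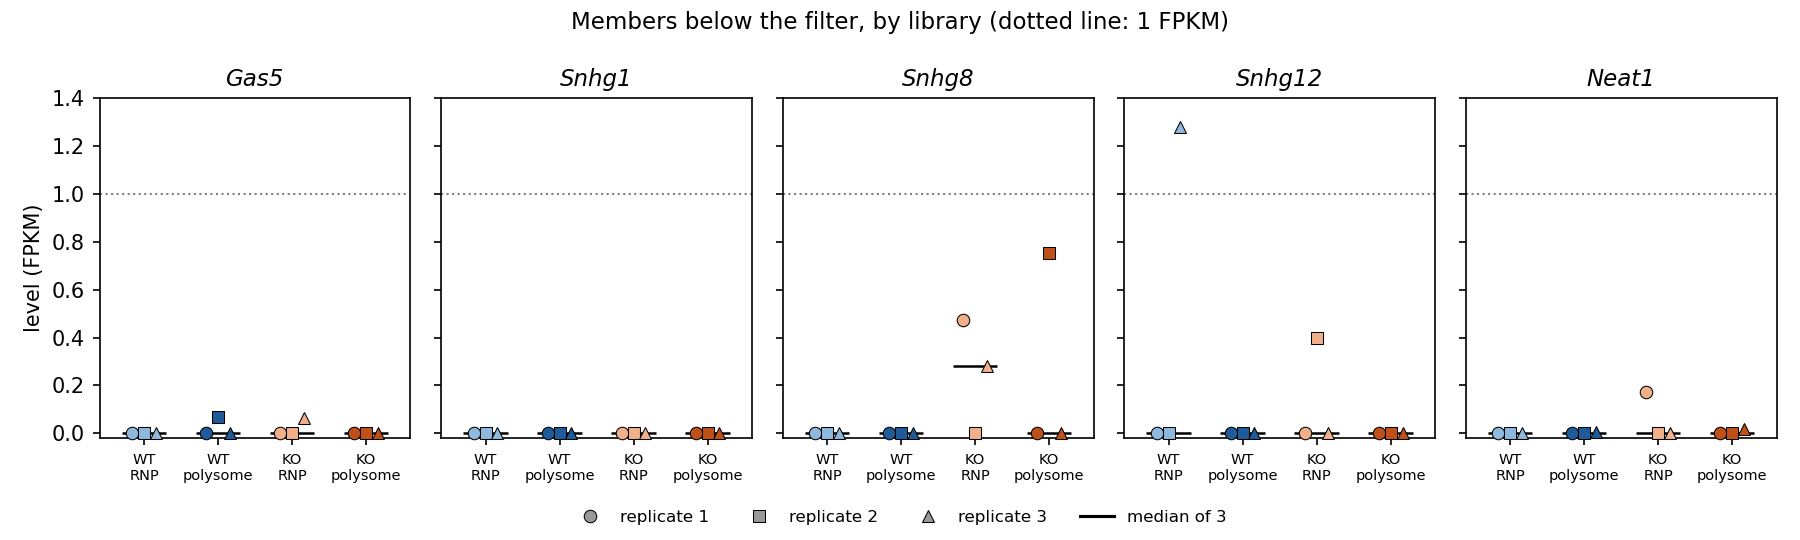
Levels in FPKM (vertical axis, from 0 to 1.4) of *Gas5*, *Snhg1*, *Snhg8*, *Snhg12* and *Neat1* in the 12 libraries by genotype and pool, with 1 symbol per library, a line at the median of each 3 and a dotted line at 1 FPKM. Only *Snhg12* in WT RNP replicate 3, at 1.28 FPKM, lies above the dotted line.

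*Malat1*, which is retained in nuclear speckles in somatic cells, was read in every library at a low level in both pools. Because poly(A) tails were primed, the levels of *Malat1* and of *Neat1* below may miss RNA without a tail. WT RNP libraries held 2.25, 4.74 and 0.580 FPKM (2.52 ± 2.09, SD, n = 3) and WT polysome libraries 1.17, 0.203 and 0.405 FPKM (0.592 ± 0.509, SD, n = 3). KO RNP libraries held 2.49, 3.63 and 3.70 FPKM (3.28 ± 0.680, SD, n = 3) and KO polysome libraries 2.51, 1.92 and 1.98 FPKM (2.14 ± 0.320, SD, n = 3). By median the order was KO RNP, WT RNP, KO polysome and WT polysome, and neighbours in that order overlapped except KO polysome and WT polysome. The gene, at chr19:5795688-5802671 of mm10 on the minus strand, gives a transcript of 6983 bases, so 1 fragment is worth 0.0185 to 0.0301 FPKM and the values rest on about 8.89 to 215.3 fragments.

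The polysome minus RNP difference of *Malat1* was -1.0 in WT (SE 0.59, 95% interval -2.34 to 0.34, adjusted p = 0.303 by limma) and -0.44 in KO (SE 0.33, 95% interval -1.18 to 0.30, adjusted p = 0.360 by limma). The pools overlapped in both genotypes, so lower *Malat1* in the polysome pool was not established. In the polysome pool the 3 KO libraries lay above the 3 WT libraries, with a difference of 1.02 (SE 0.44, 95% interval 0.02 to 2.02), an unadjusted p of 0.0462 and an adjusted p of 0.181 by limma. *Malat1* reached 1 FPKM in 3 KO polysome libraries and in 1 WT polysome library, so it passed the filter through the KO. Of all genes tested there, 31.7% had groups that did not overlap and 10.4% were called, beside 1 and none of the 3 members. The summed granulosa and cumulus cell markers given above were also higher in these KO libraries, and their part in the value of *Malat1* was not tested. In the RNP pool the KO minus WT difference was 0.46 (SE 0.49, 95% interval -0.64 to 1.56, adjusted p = 0.556 by limma), and it turned to -0.027 without WT RNP replicate 3 and was 0.90 without WT RNP replicate 2. There 20.7% of all genes were called and 39.2% had groups that did not overlap, beside none of the 3 members by either rule. The interaction was 0.56 (95% interval -0.86 to 1.99, adjusted p = 0.810 by limma).

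*Neat1*, the RNA that holds paraspeckles together, lies at chr19:5824708-5845480 of mm10 and was above 0 in 3 of 12 libraries. These were KO RNP replicate 1 at 0.174 FPKM, KO polysome replicate 3 at 0.0190 FPKM and WT polysome replicate 3 at 0.00605 FPKM. In these libraries *Malat1*, its neighbour on the chromosome, stood at 2.49, 1.98 and 0.405 FPKM.

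**Figure D3:**
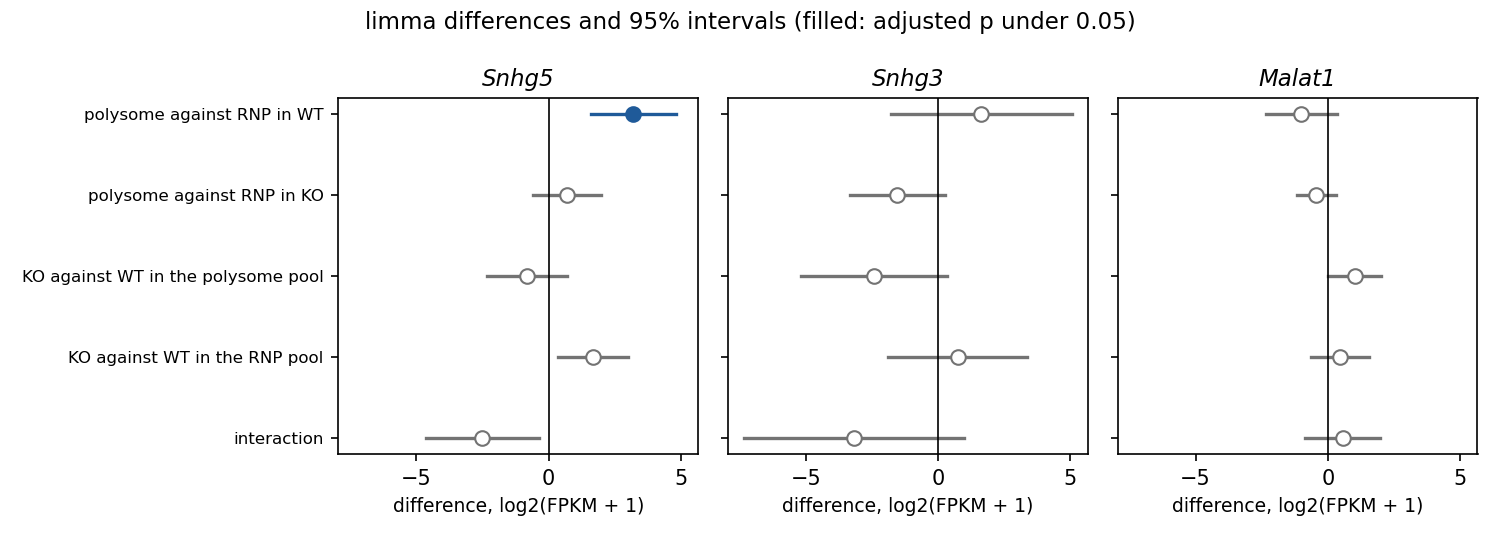
Differences on the log2(FPKM + 1) scale (horizontal axes) with 95% intervals for *Snhg5*, *Snhg3* and *Malat1* in the 4 comparisons of groups and the interaction of genotype and pool. The filled point, *Snhg5* in WT at 3.20, is the one with an adjusted p under 0.05, and the interval of *Snhg3* spans 0 in all 5.

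The pools were next compared for the other long noncoding genes of the table, to show where the 3 members stood among them. By annotation 1981 other symbols are long noncoding, and 262 of them were tested in WT and 259 in KO. In WT, 2 rose and 20 fell in the polysome pool, with a median difference of -0.43 beside -0.08 for 9235 protein-coding genes. Of those coding genes 752 rose and 619 fell. In KO, 4 rose and 77 fell, with a median of -0.65 beside -0.03 for 9502 protein-coding genes, of which 1511 rose and 1260 fell. *Snhg5* and *Snhg3* thus lay above 0 in WT, opposite to the class median, as did 79 of the 262, and *Malat1* lay below 0. Of these 3 members only *Snhg5* was called there. KO against WT, 9 of 231 rose and 17 fell in the polysome pool, beside 523 and 429 of 9228 protein-coding genes. In the RNP pool 23 of 305 rose and 37 fell, beside 1008 and 966 of 9534. These counts are a description of the class, with no test between classes, and they moved with the processing: over the alternatives the number that fell was 7 to 34 between the WT pools, 42 to 82 between the KO pools, 8 to 31 in KO against WT in the polysome pool and 18 to 39 in the RNP pool. Between the pools 13.2% of the long noncoding symbols passed the filter in WT and 13.1% in KO, beside 45.1% and 46.4% of the protein-coding ones. The classes were not matched by level, and the part of the filter in the medians was not tested.

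**Figure D4:**
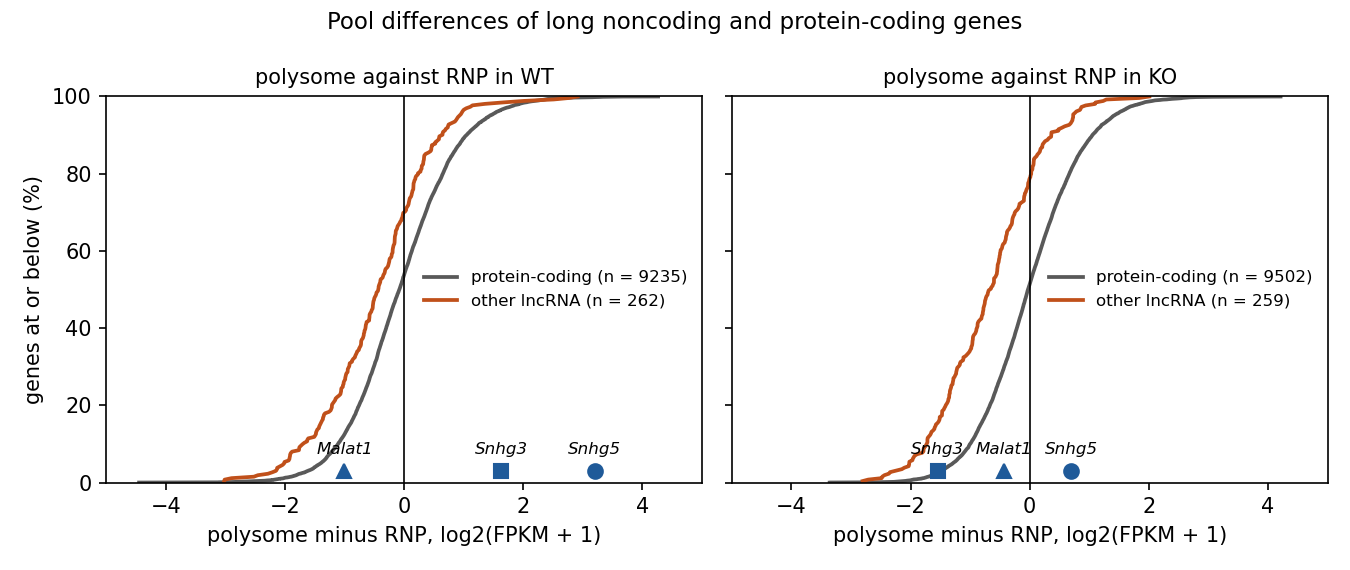
Percentage of genes (vertical axes) at or below each polysome minus RNP difference on the log2(FPKM + 1) scale (horizontal axes) in WT and KO, for protein-coding genes and for long noncoding genes other than the 8. The long noncoding curve lies to the left, with medians of -0.43 and -0.65 against -0.08 and -0.03, and symbols near the lower edge mark the differences of *Snhg5*, *Snhg3* and *Malat1*. The classes were not matched by level.

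Among 16 further snoRNA host genes, 10 had rows and at most 3 were tested in a comparison, none of which was called by limma in any of the 5, with 1 at an unadjusted p under 0.05 between the pools of each genotype and 0 in the others. *Snhg18* held 6.48 to 24.0 FPKM in WT RNP and 0.299 to 14.1 FPKM in WT polysome libraries, and *Snhg10* 6.30 to 14.9 FPKM and 0 to 7.12 FPKM. *Snhg4*, *Snhg9* and *Snhg11* are listed at 0 in all 12 libraries. Both *Snhg10* and *Snhg18* had negative polysome minus RNP differences in WT, opposite in sign to *Snhg5*, at -2.15 for *Snhg10* (adjusted p = 0.105 by limma) and -1.21 for *Snhg18* (adjusted p = 0.421 by limma).

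Of 28 further long noncoding RNAs, 21 had rows and 4 or 5 were tested in each comparison. Of these *Mir22hg*, the host of *Mir22*, was the only one called, 1 of 4 in the polysome pool and 1 of 5 in the RNP pool, where 10.4% and 20.7% of all genes were called. It fell in KO, from 42.6 to 47.1 FPKM in WT RNP libraries to 6.31 to 6.76 FPKM in KO RNP libraries (difference -2.59, adjusted p = 5.4e-05 by limma), and from 23.6 to 65.5 FPKM to 1.08 to 6.18 FPKM in polysome libraries (difference -3.19, adjusted p = 0.0105 by limma). *Tug1*, a chromatin-associated RNA, was at 8.53 to 18.6 FPKM in the 12 libraries, above every value of *Malat1* as read by poly(A) priming. *Xist*, which silences an X chromosome in somatic female cells, and *H19*, an imprinted RNA, are listed at 0 throughout. *Airn*, the antisense RNA of the *Igf2r* locus, was above 0 in 5 of 6 RNP libraries, at up to 4.80 FPKM, and listed at 0 in all 6 polysome libraries, but did not reach the filter in every comparison.

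Transcripts of the proteins that act on these RNAs were taken from lists of their own. Of the 21 nonsense-mediated decay factors, 18 or 19 were tested. Between the pools 11.1% of them were called in WT and 36.8% in KO, beside 14.7% and 29.2% of all genes. In KO against WT 5.6% were called in the polysome pool and 10.5% in the RNP pool, beside 10.4% and 20.7% of all genes. In WT, *Ncbp2*, a subunit of the nuclear cap-binding complex, rose in the polysome pool by 1.58 and *Magoh*, of the exon junction complex, fell by 1.19. In KO, 5 rose and 2 fell between the pools, among them *Rbm8a*, the partner of *Magoh*, which rose by 1.33 while *Magoh* fell by 1.78. Between genotypes, *Upf1*, the central helicase of this decay, fell by 0.91 in the KO RNP pool, and *Smg8* rose by 0.46 there, while *Ncbp2* fell by 1.18 in the KO polysome pool. The list medians of -0.17 in the WT pools and 0.18 in the KO pools stand beside -0.09 and -0.04 for all genes.

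Of the 18 snoRNP proteins, which bind and process snoRNAs, 15 to 17 were tested, and *Fbl*, the methyltransferase of box C/D particles, was at most at 0.230 FPKM. Between the pools 20.0% of those tested were called in WT and 18.75% in KO. In KO against WT 6.25% were called in the polysome pool and 12.5% in the RNP pool. The matching shares of all genes were 14.7%, 29.2%, 10.4% and 20.7%. In the WT polysome pool 2 rose and 1 fell, with *Nop10*, of box H/ACA particles, up by 1.42 and *Nop56*, of box C/D particles, down by 1.59. Between KO pools 1 rose and 2 fell, with *Dkc1*, the pseudouridine synthase, up by 1.05. In KO against WT, *Naf1* rose by 1.96 in the polysome pool, and in the RNP pool *Nop10* rose by 1.05 and *Gar1* fell by 1.16. *Naf1* was at most at 0.404 FPKM in WT polysome and at 1.58 to 5.70 FPKM in KO polysome libraries, so it passed the filter through the KO. Of the 17 paraspeckle and speckle proteins, all were tested. Called were 5.9% between the WT pools, 41.2% between the KO pools and 17.65% in KO against WT in the RNP pool. Of all genes, 14.7%, 29.2% and 20.7% were called in these comparisons. *Nono*, a paraspeckle core protein, rose in the polysome pool by 0.60 in WT, and between KO pools 4 rose and 3 fell, with *Son* up by 1.45. In KO against WT, 3 rose in the RNP pool, *Nudt21* by 1.96, *Pspc1* by 1.65 and *Matr3* by 0.88, and none was called by limma in the polysome pool, where 3 had an unadjusted p under 0.05. *Pspc1* too passed the filter through the KO, at 0 to 1.12 FPKM in WT RNP and 2.34 to 4.25 FPKM in KO RNP libraries. As a coding reference, 3 of 13 tested housekeeping mRNAs rose and 1 fell between the WT pools, with *Actg1* up by 2.75, and 5 rose and 2 fell between the KO pools. These calls make up 30.8% and 53.85% of the tested mRNAs, beside 14.7% and 29.2% of all genes. Of the calls just named, those of *Upf1*, *Dkc1*, *Son*, *Nudt21*, *Matr3*, *Actg1*, *Magoh* between the KO pools, *Ncbp2* between the WT pools and *Nop10* in the RNP pool held under every alternative, whereas the others were lost under at least 1.

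Genes with the pattern most like each tested member were taken among the 6680 genes whose mean reached 5 FPKM, by the correlation of log2(FPKM + 1) over the 12 libraries, which share pools and genotypes. For *Snhg5* these were *Plin3* (r = 0.917), *Zfp706* (r = 0.889) and *Ap3m1* (r = 0.887). For *Snhg3* they were *Sergef* (r = 0.862), *Trnp1* (r = 0.846) and *1810058I24Rik* (r = 0.80), and for *Malat1* they were *Samhd1* (r = 0.930), *Asb13* (r = 0.908) and *Mrpl28* (r = 0.898). The members did not resemble each other, with r = -0.30 between *Malat1* and *Snhg5*, 0.20 between *Malat1* and *Snhg3* and 0.01 between *Snhg3* and *Snhg5*.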

How the data were processed

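Oocyte RNA of sucrose gradient pools was sequenced as paired 150-bp reads in 12 libraries. The authors aligned them to mm10 by TopHat2 2.0.13, and the FPKM values come from Cufflinks 2.2.1, per the labels and the study's methods. The labels also name Cuffnorm and Cuffdiff. The deposited FPKM table holds no read counts, and whole reads could not be recovered for nearly all genes, so depth was only estimated. If the values were rescaled between libraries, the estimate gives scaled rather than raw fragments. For this, low FPKM values were multiplied by transcript length less 200 bases, for 3391 genes with 1 known transcript, and the step taken as 1 fragment; 54.1 to 73.6% of low values lay within 0.1 of a whole number. The 54 columns of the authors' own comparisons were not used.

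FPKM was tested as log2(FPKM + 1), which understates changes of low genes, with limma 3.58.1 in R 4.3.3. Genes with at least 1 FPKM in at least 3 libraries of a comparison entered, with an intensity trend and Benjamini-Hochberg adjustment at 0.05 over all genes tested. The 4 comparisons of groups used their own 6 libraries and the interaction all 12. An exact permutation test of 3 against 3 libraries cannot go below 0.1. Members, gene lists and tests were chosen with earlier results of these data known. Named were all 8 members, *Lsm14b*, up to 3 called genes of each list with the largest differences, genes overlapping or inside a member and, for members whose mean reached 1 FPKM, the 3 most correlated genes; other genes named were picked after their values were seen. Alternatives were pseudocounts of 0.1 and 5, no filter, a filter at 5 FPKM, rescaled medians, a replicate block, no trend, all 12 libraries in 1 fit and each library left out. The limma script was tested on simulated data. Annotation came from GENCODE vM21 and RefSeq on GRCm38, and tables were handled in Python 3.11.15 with pandas 2.3.3.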

Additional observations from a re-analysis of the deposited data

How the results depend on the processing

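The *Snhg5* difference between the WT pools kept its direction under all 14 alternatives, from 1.76 to 5.00 with adjusted p from 0.00492 to 0.0708 by limma. The number of members called there fell from 1 to 0 with no filter on low values, and was 0 to 1 with single libraries left out. With single libraries left out it was also 0 to 1, from 0, for KO against WT in each pool. *Malat1* in KO against WT in the RNP pool ranged from -0.027, without WT RNP replicate 3, to 0.90, without WT RNP replicate 2. The other member results kept their direction. The cause was not tested. Genes called between the WT pools (1406) numbered 728 with no intensity trend, 2302 with all 12 libraries in 1 fit and 780 to 1212 with single libraries left out. Genes called between the KO pools (2881) numbered 2030 to 2909 with single libraries left out. In KO against WT in the polysome pool (989) they numbered 545 with no filter, 508 with no trend, 1843 in 1 fit and 383 to 790 with single libraries left out, and in the RNP pool (2057) 1255 to 1911. For the interaction (26) they numbered 6 with no trend and 0 to 46 with single libraries left out. Fewer libraries leave less residual information in each fit. Deviations of same-numbered libraries from their group means correlated from -0.02 to 0.03. Separate noise in each library could hide a shared lysate, so these values cannot tell whether the replicate numbers pair libraries. With the replicate block the interaction gave 0 called genes by limma, against 26, with 1129 at an unadjusted p under 0.05, and 672 genes were called in KO against WT in the polysome pool, the *Snhg5* call remained at an adjusted p of 0.0119 by limma, and the members called stayed at 1, 0, 0, 0 and 0. The long noncoding class median lay below that of all genes in all 5 comparisons under each of the 75 alternative fits. Of 39 calls of other named genes, 22 held under every alternative, among them both of *Mir22hg*, and 17 were lost under some, in 83 of 543 fits, with no change of direction. The counts of that class moved by over 1.5 times in 37 of 75 fits for genes that rose and 21 of 75 for genes that fell. Where *Gas5*, *Snhg8* and *Snhg12* were above 0, their values rest on about 1 to 3.38 fragments.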
